A study of Mus musculus with 2 samples.

Results

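The high mobility group (HMG) chromatin genes described here are Hmga1, Hmga2, Hmgb1, Hmgb2, Hmgn1, Hmgn2 and Hmgn3, 7 of the 31053 genes in a count matrix of single mouse bone marrow cells. They were chosen by symbol as members of the family, with earlier results of these data known, and Hmgn3 was picked for its lower level in the Pf4 class of the library labelled Runx1 KO. That value is therefore given as a description and supports nothing further. All 7 rows had unique molecular identifiers (UMIs, tags that mark single captured RNA molecules), as did 20022 rows of the matrix.

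The cells were C57BL/6 hind limb marrow progenitors sorted as Lineage-, c-Kit+ and Sca1-, which keeps cells on their way to the red cell, platelet, granulocyte, monocyte and mast cell lineages. Control was a pool of 2 mice, 1 Runx1f/f and 1 Runx1f/-, so the latter carried a germline mutation of a single Runx1 allele. The other library was labelled Runx1 KO; its allele, any Cre or inducing agent, its number of mice and the ages of both are details the sources used here do not state, and a label that mentions embryos disagrees with the marrow source. Runx1 is a transcription factor of blood stem and progenitor cells. There was 1 library per genotype, so no test between genotypes was possible and no p-value is given; the 95% intervals below cover counting error only, not the spread between mice.

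The libraries held 6906 Control and 7889 KO-labelled cells with 162278272 and 145590840 UMIs, at medians of 21594 and 16092 UMIs per cell. Mitochondrial UMIs reached 10% or more in 2.74% and 4.12% of cells, and 13 cell barcodes occurred in both libraries. Runx1 itself stood at 143 UMIs per 1000000 (CPM) in Control and 361 CPM in the KO-labelled library; 3′ end counts need not fall in a deleted part, so this neither checks nor contradicts the label, and the name "KO-labelled" is used throughout. Of the sort markers, Kit stood at 114 and 100 CPM, and Ly6a, which encodes Sca1, at 1.63 and 2.39 CPM. The depositors placed the cells in 18 classes named by genes. The 8 named classes with at least 100 cells in each library were compared: CD34, Car1, Hba-a2, Pf4, Ly86, Gstm1/Ly86, Gstm1/CD63 and Fcnb. The cells marked Unannotated, 143 Control and 175 KO-labelled ones, also reached that number; they carry no class name, so they are given apart and are not in the counts over 8 classes.

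HMG proteins are abundant nonhistone proteins that bend DNA or bind nucleosomes without much regard to sequence. HMGA proteins hold AT-rich DNA in the minor groove through short AT-hooks, HMGB proteins bend DNA with HMG boxes, and HMGN proteins sit on the nucleosome core, where they compete with linker histone H1. In blood, Hmga2 is best known as a gene of fetal stem and progenitor cells that is repressed by let-7 microRNAs, and Hmgb2 as a gene that follows proliferation.

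On GRCm38 (GENCODE M21), Hmga1 lies at chr17:27556497-27563674 on the plus strand, Hmga2 at chr10:120361275-120476469 on the minus strand, Hmgb1 at chr5:149046702-149184489 on the minus strand and Hmgb2 at chr8:57511907-57515999 on the plus strand. Hmgn1 lies at chr16:96120618-96127729, Hmgn2 at chr4:133964738-133968650 and Hmgn3 at chr9:83109948-83146685, all on the minus strand. All 7 are protein-coding genes. The annotation also names 14 Hmgb1 and 2 Hmgn2 pseudogenes, of which 0 are rows of the matrix, so reads shared with those copies are an uncertainty of Hmgb1 and Hmgn2. The near copy Hmga1b has a row of its own, at 2.51 CPM in Control and 2.10 CPM in the KO-labelled library.

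RefSeq start sites (GRCm38.p6) were matched for 6 members at 8 promoter windows, each the 250 bases before the start. Searched on both strands were CCAAT, the box bound by NF-Y, TTTGAA, the core of the cell cycle genes homology region, and TGTGGT or TGCGGT, the letters of RUNX sites. The 4 windows below are shown because the members they belong to differ most in how their RNA varied: Hmgb2 with cell cycle gene level, Hmgb1 least among classes, Hmgn1 between libraries and Hmga2 between classes and libraries together. Capitals mark CCAAT on the strand shown and, for Hmgb2 alone, TTTGAA on either strand (TTCAAA is its reverse complement).
Hmgb2, chr8:57511593-57511842, plus strand: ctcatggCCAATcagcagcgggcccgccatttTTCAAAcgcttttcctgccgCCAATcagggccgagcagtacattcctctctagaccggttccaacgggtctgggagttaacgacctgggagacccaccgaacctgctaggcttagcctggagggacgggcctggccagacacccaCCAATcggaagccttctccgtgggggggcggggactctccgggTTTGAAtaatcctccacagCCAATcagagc
Hmgb1, chr5:149053058-149053307, minus strand: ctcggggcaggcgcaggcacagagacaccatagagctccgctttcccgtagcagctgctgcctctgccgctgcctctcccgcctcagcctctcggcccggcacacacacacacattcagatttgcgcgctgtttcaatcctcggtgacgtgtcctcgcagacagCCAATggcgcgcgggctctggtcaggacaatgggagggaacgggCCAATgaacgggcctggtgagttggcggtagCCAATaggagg
Hmgn1, chr16:96127726-96127975, minus strand: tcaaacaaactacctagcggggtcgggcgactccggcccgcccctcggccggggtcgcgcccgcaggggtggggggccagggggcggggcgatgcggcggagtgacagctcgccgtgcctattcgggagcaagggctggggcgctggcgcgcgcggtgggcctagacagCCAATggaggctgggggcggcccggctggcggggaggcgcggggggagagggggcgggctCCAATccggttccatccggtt
Hmga2, chr10:120476470-120476719, minus strand: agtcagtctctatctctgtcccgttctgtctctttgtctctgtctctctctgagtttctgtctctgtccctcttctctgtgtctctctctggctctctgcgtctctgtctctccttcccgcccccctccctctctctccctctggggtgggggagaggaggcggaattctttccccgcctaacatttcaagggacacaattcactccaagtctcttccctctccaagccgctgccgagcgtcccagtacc
The Hmgb2 window held 4 CCAAT and 2 TTTGAA matches, the Hmgb1 window 3 CCAAT and the Hmgn1 window 2 CCAAT, while the Hmga2 window held 0 matches of either motif, as did the other 4 windows, of Hmga1, Hmgn2 and a second Hmgb1 start. Among 32536 distinct windows of the same length, 33.8% held at least 1 CCAAT, 10.1% at least 2, 2.78% at least 3 and 0.842% at least 4; 15.8% held at least 1 TTTGAA and 1.81% at least 2. The RUNX-type letters, in 18.5% of all windows, were in 0 of the 8 member windows. A match here is a description of letters in a window and not evidence of a bound site.

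Among the 39 member and class pairs that were measured, 7 were at least 1.5-fold lower and 4 at least 1.5-fold higher in the KO-labelled library. A gene counted as measured at 30 CPM or more in the higher library and at least 100 UMIs over both, and the 1.5-fold limit was applied after adding 10 CPM to both values. The lower pairs were Hmgn1 in 6 classes and Hmgn3 in Pf4; the higher pairs were Hmga2 in 4 classes. Hmgb1, Hmgb2, Hmgn2 and Hmga1 passed in neither direction in any class. In cells thinned to 5000 UMIs Hmgn1 no longer passed 1.5-fold in Car1 and Gstm1/Ly86. Hmga2 in Gstm1/Ly86 was no longer called there because its 16 and 33 UMIs fell under the 100 UMI minimum. Its ratio in those thinned cells was 4.21 (2.25 to 8.185). Without the 5% of cells with most UMIs Hmga2 was no longer called in Gstm1/CD63. With 50 CPM added, Hmgn1 passed in Pf4 and Ly86, Hmgn3 in Pf4 and Hmga2 in Gstm1/Ly86.

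By class, the lower calls were 1 of 5 measured members in CD34 (Hmgn1, against 1.37% of all measured genes), 1 of 4 in Car1 (Hmgn1, against 1.95%), 0 of 4 in Hba-a2 (against 0.751%), 1 of 6 in Ly86 (Hmgn1, against 0.817%) and 1 of 6 in Gstm1/Ly86 (Hmgn1, against 0.628%). They were 0 of 5 in Gstm1/CD63 (against 0.7%) and 1 of 4 in Fcnb (Hmgn1, against 0.92%). In Pf4 they were 2 of 5, Hmgn1 and Hmgn3, against 3.38%, a count that the choice of Hmgn3 partly fixed. The higher calls were Hmga2 alone in CD34 (1 of 5, against 2.85%), Ly86 (1 of 6, against 2.19%), Gstm1/Ly86 (1 of 6, against 1.63%) and Gstm1/CD63 (1 of 5, against 1.38%). No member was called higher in Car1 (0 of 4, against 3.67%), Hba-a2 (0 of 4, against 1.8%), Pf4 (0 of 5, against 7.15%) or Fcnb (0 of 4, against 1.07%). Among the Unannotated cells 2 of 5 measured members were called lower, Hmga2 and Hmgn1, against 7.16% of all measured genes, and 0 of 5 higher, against 7.9%; with them the counts are 9 lower and 4 higher of 44 pairs. The calls thus rest on 3 genes, and the members were picked with earlier results known, so the counts describe them and carry no test. The median log2 ratio over all measured genes lay between -0.02 and 0.02 in the 8 classes.

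**Figure D1:**
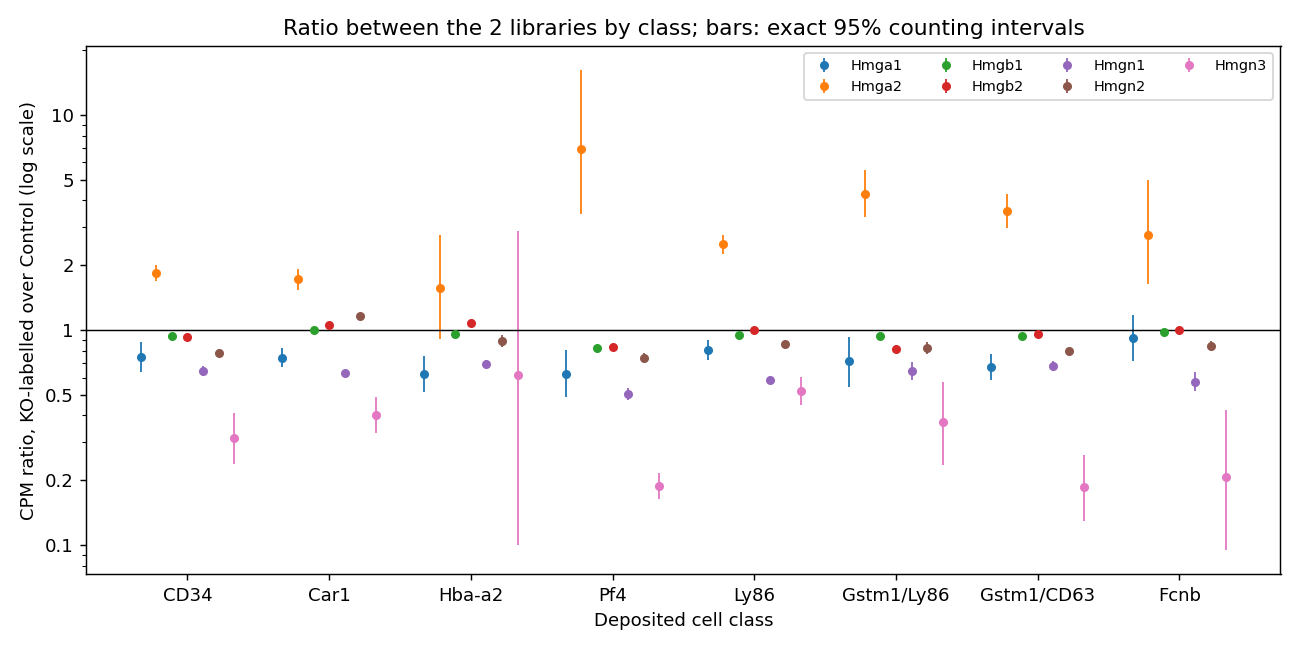
Ratio of CPM in the KO-labelled library over Control (log axis) for each of the 7 genes in 8 cell classes, with exact 95% counting intervals. In these 8 classes Hmgn1 and Hmgn3 lie below 1, Hmga2 lies above 1, with intervals reaching 1 in Hba-a2 for Hmga2 and Hmgn3, and Hmgb1 and Hmgb2 stay between 0.814 and 1.07; the Unannotated cells, where Hmga2 was at 0.368, are not plotted.

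Of the HMGA genes, Hmga2 stood highest in the CD34 class, named for a surface marker of early progenitors, at 48.6 CPM (45.8 to 51.6) in Control and 89.3 CPM (83.9 to 94.9) in the KO-labelled library. The ratio was 1.84 (1.68 to 2.00, from 1094 and 1022 UMIs). In the Ly86 class, whose name gene is an immune receptor partner, the Hmga2 level was 19.3 CPM in Control and 48.3 CPM in KO-labelled cells, a ratio of 2.50 (2.25 to 2.78). The intervals of the 2 libraries were apart in both classes. The Unannotated cells went the other way, with 72.9 CPM in Control and 26.8 CPM in KO-labelled cells, a ratio of 0.368 (0.262 to 0.512, from 136 and 51 UMIs).

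In the granulocyte classes the Hmga2 ratios were larger. Gstm1/Ly86 cells had 12.8 CPM in Control and 54.9 CPM in KO-labelled cells, a ratio of 4.29 (3.34 to 5.54). Gstm1/CD63 cells had 8.54 and 30.5 CPM, a ratio of 3.57 (2.98 to 4.29). Fcnb cells, named for ficolin B of neutrophil granules, had 3.74 and 10.4 CPM, a ratio of 2.77 (1.63 to 5.0) that rests on 17 and 78 UMIs and stayed under the minimum for a call.

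Markers of other cell types differed in the same classes. In Ly86 the mature neutrophil marker sum was 32.7 CPM in Control and 544 CPM in KO-labelled cells (9 of 9 markers detected in both), and the lymphoid and dendritic sum 67.8 and 20.4 CPM (8 of 9 in both). In CD34 the megakaryocyte sum was 148 and 651 CPM (12 and 11 of 12). The mature neutrophil sum was 35.9 and 119 CPM in Gstm1/Ly86 and 69.1 and 164 CPM in Gstm1/CD63 (9 of 9 in each). It was not particular to classes with a Hmga2 call, at 72.4 and 888 CPM in Hba-a2 and 33.4 and 170 CPM in Car1. In CD34 and Pf4 it was higher in KO-labelled cells as well, and in Fcnb lower, at 2599 and 1619 CPM. The part of these markers in the Hmga2 values was not tested.

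In the erythroid and megakaryocyte classes Hmga2 was low. Car1 cells, named for an erythroid carbonic anhydrase, had 11.1 CPM in Control and 19.0 CPM in KO-labelled cells, a ratio of 1.72 (1.54 to 1.92). Hba-a2 cells, named for alpha globin, had 1.87 and 2.94 CPM, with overlapping intervals and a ratio of 1.57 (0.903 to 2.77). Pf4 cells, named for platelet factor 4, had 1.83 CPM from 8 UMIs in Control and 12.7 CPM from 318 UMIs in KO-labelled cells, a ratio of 6.92 (3.47 to 16.2). Levels in these 3 classes were under the 30 CPM minimum for a call, and the Pf4 ratio, with 8 UMIs in its denominator, has the widest interval.

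The order of classes by Hmga2 level was similar in the libraries (Spearman's rho 0.881 over 8 classes, a description), with CD34 at the top of both. In Control, Gstm1/Ly86 and Car1 had overlapping intervals, as did Fcnb, Hba-a2 and Pf4; in the KO-labelled library Gstm1/Ly86 overlapped Ly86, and Pf4 overlapped Fcnb. The highest class exceeded the lowest 26.6-fold in Control and 30.4-fold in the KO-labelled library. Over the whole libraries Hmga2 stood at 17.5 and 26.8 CPM, a ratio of 1.53 (1.45 to 1.60), smaller than in each of the 8 named classes. When the KO-labelled class levels were averaged at the class proportions of Control, the ratio over these cells was 2.21, against 1.59 at the library's own proportions.

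The share of cells with a Hmga2 UMI was higher in the KO-labelled library as well. After every cell had been thinned to 5000 UMIs, 20.2% of 1005 Control and 32.5% of 658 KO-labelled CD34 cells had one; unthinned the shares were 51.3% and 59.6%. In Ly86 the thinned shares were 8.74% and 18.5% and the unthinned ones 29.5% and 55.7%. In Hba-a2, the class with the lowest Hmga2 level in the KO-labelled library and close to it in Control, the thinned shares were 1.10% and 1.70% (6.80% and 6.92% unthinned, at medians of 51294 and 37146 UMIs per cell). The Control share in Pf4, 1.46% (0.303 to 4.22) of 205 thinned cells, rested on 3 cells and was close to the Hba-a2 shares. The KO-labelled share in Pf4, 6.42% (5.30 to 7.69) of 1698, was higher. Unthinned the Pf4 shares were 3.60% and 13.5%.

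Hmga1, the other AT-hook gene, was low throughout and differed in the opposite direction. Its highest class was Ly86 in both libraries, at 38.4 CPM in Control and 30.9 CPM in KO-labelled cells, a ratio of 0.806 (0.723 to 0.896). Its lowest was Pf4, at 19.2 and 12.0 CPM, a ratio of 0.623 (0.488 to 0.804), where Car1 in Control overlapped it at 19.5 CPM. The interval lay below 1 in 7 of 8 classes, the exception being Fcnb at 0.917 (0.720 to 1.17). Hmga1 was measured in only 2 classes and passed 1.5-fold in neither.

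**Figure D2:**
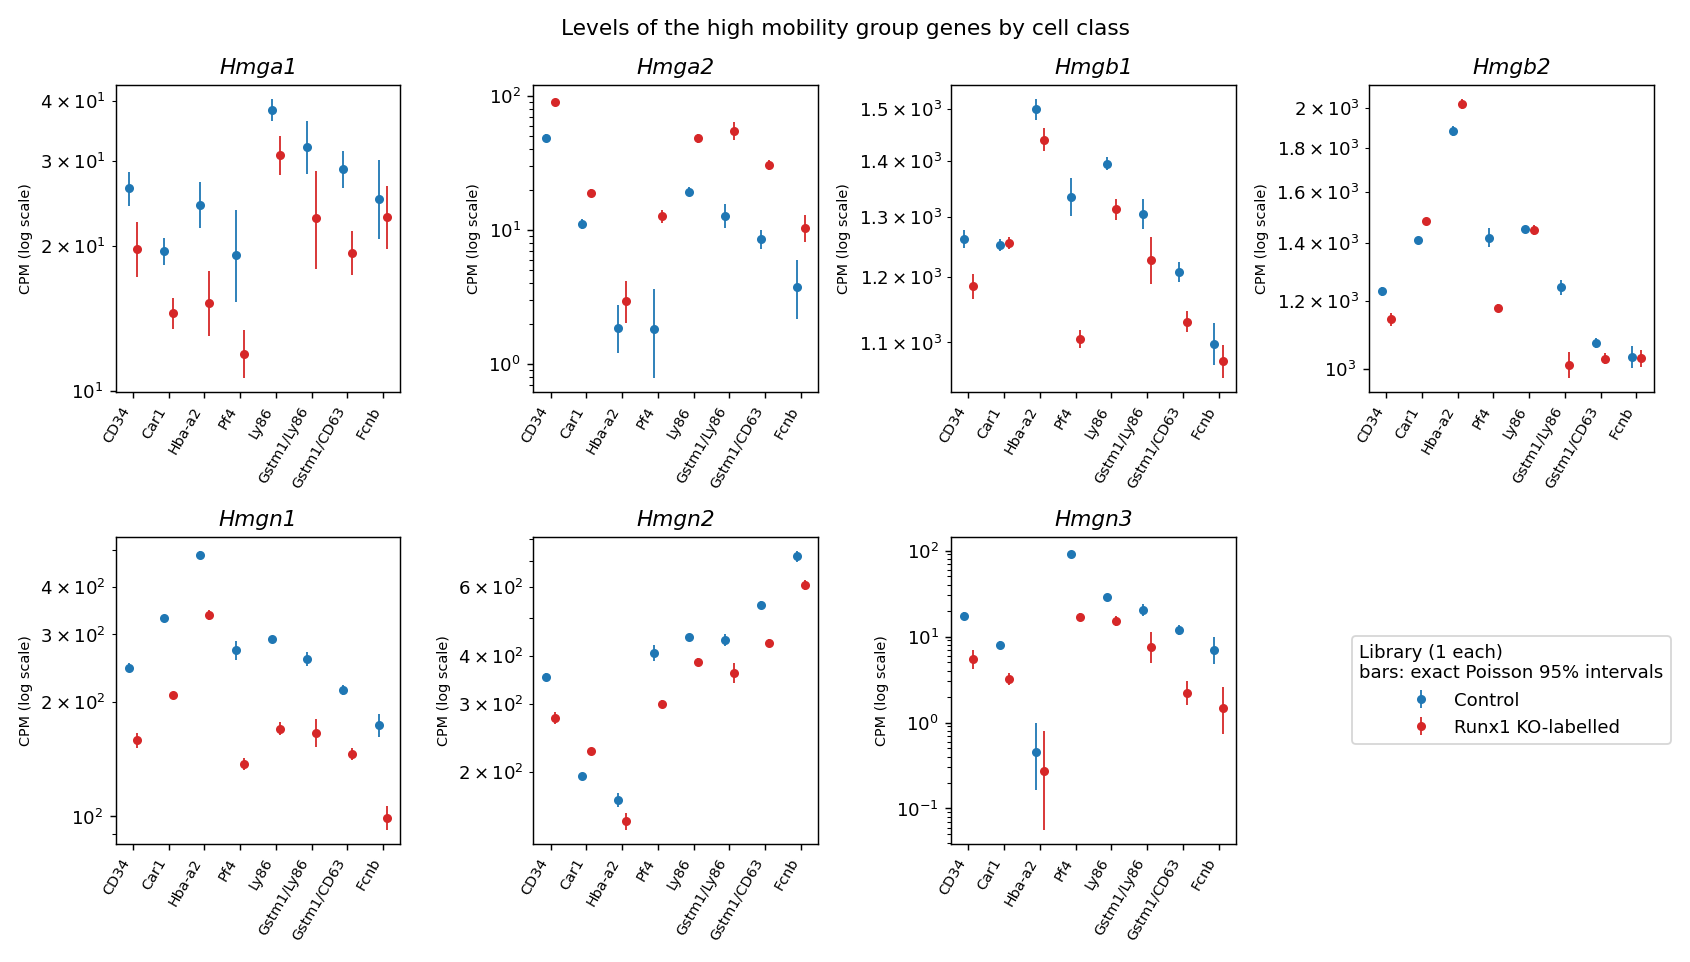
CPM of each gene (log axis, scaled to each gene) in 8 cell classes of the Control and KO-labelled libraries, 1 library each, with exact Poisson 95% intervals. Hmgn3 runs from 0.448 CPM in Hba-a2 to 90.4 CPM in Pf4 in Control, Hmgn2 is highest in the Fcnb class of both libraries, and Hmgn1 is lower in KO-labelled cells of each class.

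Of the HMGB genes, Hmgb1 varied least between classes. In Control it ran from 1098 CPM in Fcnb to 1500 CPM in Hba-a2, and in the KO-labelled library from 1073 CPM in Fcnb to 1441 CPM in Hba-a2. The highest class was 1.37-fold above the lowest in Control and 1.34-fold in the KO-labelled library. The ratio between libraries ran from 0.827 (0.804 to 0.851) in Pf4, with 1335 and 1105 CPM, to 1.00 (0.992 to 1.01) in Car1; its interval lay below 1 in 6 classes. With between 4027 and 62424 UMIs behind these values, differences of a few percent exceed counting error without being shown to exceed the spread between mice.

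Hmgb2 ran from 1033 CPM in Fcnb to 1883 CPM in Hba-a2 in Control and from 1012 CPM in Gstm1/Ly86 to 2023 CPM in Hba-a2 in the KO-labelled library. Its ratio was below 1 in CD34 (0.928), Pf4 (0.830), Gstm1/Ly86 (0.814) and Gstm1/CD63 (0.959) and above 1 in Car1 (1.05) and Hba-a2 (1.07), while the intervals of Ly86 and Fcnb included 1. The order of classes was alike but not equal (Spearman's rho 0.762 over 8 classes). In the lower part of that order Fcnb, Gstm1/CD63 and Gstm1/Ly86 did not differ beyond their intervals in the KO-labelled library.

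Hmgb2 followed the genes of G2 and mitosis. Cells thinned to 5000 UMIs were put in 4 bins by the summed UMIs of 30 G2/M genes, such as Cdk1, Ccnb1 and Top2a, none of which is a member. In Control the Hmgb2 level went from 529 CPM in the lowest bin (0 to 2 list UMIs) through 680 and 1203 CPM to 2445 CPM in the highest (16 to 109 list UMIs). In the KO-labelled library it went from 467 through 609 and 1258 to 2734 CPM. The highest bin exceeded the lowest 4.62-fold (4.45 to 4.79) in Control and 5.85-fold (5.68 to 6.03) in the KO-labelled library. With bins by a list of 24 S phase genes the same folds were 1.28 and 1.37. Within classes they lay on both sides of 1: Hmgb2 was higher in the highest S phase bin of Car1 (1.46 in Control, 1.55 in KO-labelled cells) and lower in that of Ly86 (0.799 and 0.774). In Pf4 the fold was 0.601 (0.501 to 0.720) in Control and 1.35 (1.27 to 1.43) in KO-labelled cells, and in Control Gstm1/CD63 cells it was 0.621 (0.545 to 0.707).

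The other members followed the G2/M list less steeply. Hmgb1 went from 865 to 1651 CPM in Control and from 838 to 1619 CPM in the KO-labelled library between the lowest and highest bins. Hmgn2 went from 238 to 426 CPM and from 200.4 to 431 CPM, and Hmgn1 from 201 to 308 CPM and from 117 to 209 CPM. By the S phase list Hmgn1 was steeper than Hmgb2, with folds of 2.06 (1.92 to 2.20) in Control and 2.50 (2.32 to 2.68) in the KO-labelled library. Hmga2 went the other way, from 33.5 down to 12.6 CPM in Control and from 29.1 down to 20.4 CPM in the KO-labelled library. The second bin of the KO-labelled library stood at 30.5 CPM. Over all cells the intervals of Hmgn3 in the lowest and highest bins overlapped in both libraries. Its levels there were 18.3 and 21.1 CPM in Control and 7.29 and 9.84 CPM in the KO-labelled library. The bins of all cells mix classes: within CD34, where Hmga2 was highest, it stood at 71.4 CPM in the lowest and 37.6 CPM in the highest bin of Control, and at 101 and 69.9 CPM in the KO-labelled library. Hmga2 was also lower in the highest bin of Control Ly86 (fold 0.353, 0.207 to 0.591) and KO-labelled Gstm1/CD63 cells (0.374, 0.177 to 0.750). In KO-labelled Car1 (0.896, 0.630 to 1.27), Pf4 (0.963, 0.582 to 1.55) and Ly86 cells (0.882, 0.478 to 1.66) the interval included 1. Within KO-labelled Pf4 cells Hmgn3 went from 11.9 CPM in the lowest to 27.4 CPM in the highest bin (fold 2.29, 1.505 to 3.48). In Control Pf4 cells Hmgn3 stood at 64.4 and 109 CPM, with an interval that included 1 (fold 1.69, 0.924 to 3.16). In the other classes no Hmgn3 fold had an interval apart from 1.

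**Figure D3:**
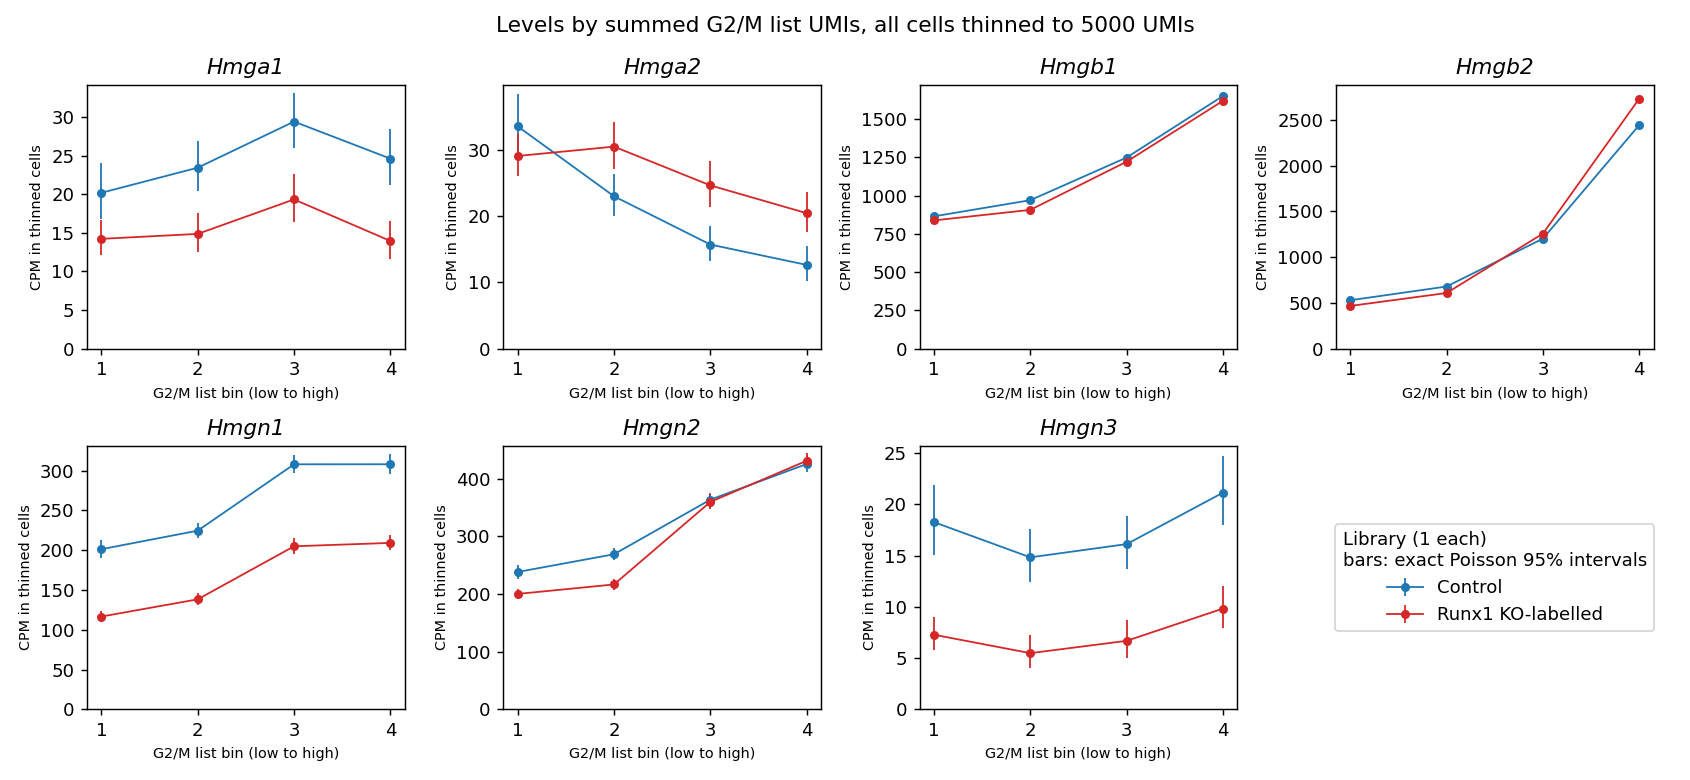
CPM of each gene in all cells thinned to 5000 UMIs, by 4 bins of summed G2/M list UMIs from low to high, with exact Poisson 95% intervals. Hmgb2 is the steepest, from 529 to 2445 CPM in Control and 467 to 2734 CPM in the KO-labelled library, Hmga2 is lower in the highest than in the lowest bin, and the Hmgn1 and Hmgn3 curves of the libraries stay apart in all 4 bins.

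The lower Hmgb2 level of the KO-labelled Pf4 class stood beside a different cell cycle makeup. The lowest G2/M bin held 28.8% (22.7 to 35.5) of this class in Control and 50.3% (47.9 to 52.7) in the other library. Over the whole class Hmgb2 stood at 1419 CPM in Control and 1177 CPM in the KO-labelled library. Within the bins the ratio was 1.01 (0.825 to 1.25), 0.956 (0.792 to 1.16), 1.25 (1.07 to 1.47) and 1.14 (1.06 to 1.23) from the lowest to the highest. The part of the cell cycle makeup in the Hmgb2 value was not tested. In Pf4, 1 of 23 measured S phase and 2 of 27 measured G2/M genes were at least 1.5-fold lower, against 3.38% of all measured genes. The S phase and G2/M lists had median log2 ratios of -0.30 and -0.33 there.

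Of the HMGN genes, Hmgn1 had the most uniform difference between libraries. Its Control level was 246 CPM in CD34, 332 CPM in Car1, 486 CPM in Hba-a2, 272 CPM in Pf4, 292 CPM in Ly86, 259 CPM in Gstm1/Ly86, 215 CPM in Gstm1/CD63 and 173 CPM in Fcnb. In the KO-labelled library the values in the same order were 158, 208, 337, 137, 170, 166, 146 and 99.4 CPM. Every one of these 8 classes was lower in the KO-labelled library and no pair of intervals overlapped. The Unannotated cells stood at 256 and 123 CPM, a ratio of 0.479 (0.408 to 0.561).

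The Hmgn1 ratio ran from 0.504 (0.472 to 0.539) in Pf4 to 0.695 (0.667 to 0.723) in Hba-a2. The ratio passed 1.5-fold in 6 classes; in Gstm1/CD63 and Hba-a2 the log2 values of -0.53 and -0.51 were just short of that limit. Hmgn1 is highest in the late erythroid class and lowest in Fcnb in both libraries. Its order of classes was alike in the 2 libraries (Spearman's rho 0.857), with Ly86, Pf4 and Gstm1/Ly86 overlapping their neighbours in Control and Ly86, Gstm1/Ly86, CD34, Gstm1/CD63 and Pf4 doing so in the KO-labelled library.

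Hmgn1 was also lower in KO-labelled cells at equal class proportions and within the cycle bins of all cells. Over all compared cells its ratio was 0.611 at the library's own class proportions and 0.629 at those of Control. Within the 4 G2/M bins of all cells it was 0.580, 0.616, 0.666 and 0.679. After thinning, 70.1% of Control and 56.5% of KO-labelled Car1 cells had a Hmgn1 UMI, and in Pf4 the shares were 65.9% and 42.3%. Unthinned they were 89.2% and 81.4% in Car1 and 87.8% and 66.4% in Pf4. In thinned cells the CPM ratio was 0.688 (0.653 to 0.725) in Car1 and 0.566 (0.491 to 0.654) in Pf4, and the Car1 value no longer passed 1.5-fold.

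The erythroid marker sum of the Car1 class stood at 3683 CPM in Control and 1237 CPM in the KO-labelled library (13 of 13 markers detected in both) and its megakaryocyte marker sum at 297 and 778 CPM (12 of 12), so the cells under that name differed in more than the members. Their part in the Car1 values was not tested.

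Hmgn1 lies on the chromosome of Runx1, its start 3.30 Mb from that of Runx1, a neighbourhood looked at after its values were seen. Besides Hmgn1 and Runx1, 24 genes within 6 Mb were measured over the whole libraries. Their median ratio was 0.948, with 0 at least 1.5-fold lower and 0 higher, from 0.764 for Mrps6 to 1.44 for Bach1; Hmgn1 stood at 0.609 (0.600 to 0.618). Psmg1, the measured gene nearest to Hmgn1 in this window, had 81.6 CPM in Control and 71.2 CPM in KO-labelled cells, a ratio of 0.873 (0.851 to 0.896). By class the median of the neighbours was 0.915 to 0.979. Of them 1 of 26 was called lower in Car1 (against 1.95% of all measured genes) and 2 of 24 in Hba-a2 (against 0.751%). In Pf4 1 of 26 was called higher (against 7.15%). Mrps6 reached 0.600 in Pf4, where Hmgn1 was 0.504. Cbr1 reached 0.338 in Car1, below Hmgn1 there. In Hba-a2 Cbr1 and Mrps6 each stood at 0.589, below Hmgn1 at 0.695. Any bearing of the location on the Hmgn1 values was not tested.

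**Figure D4:**
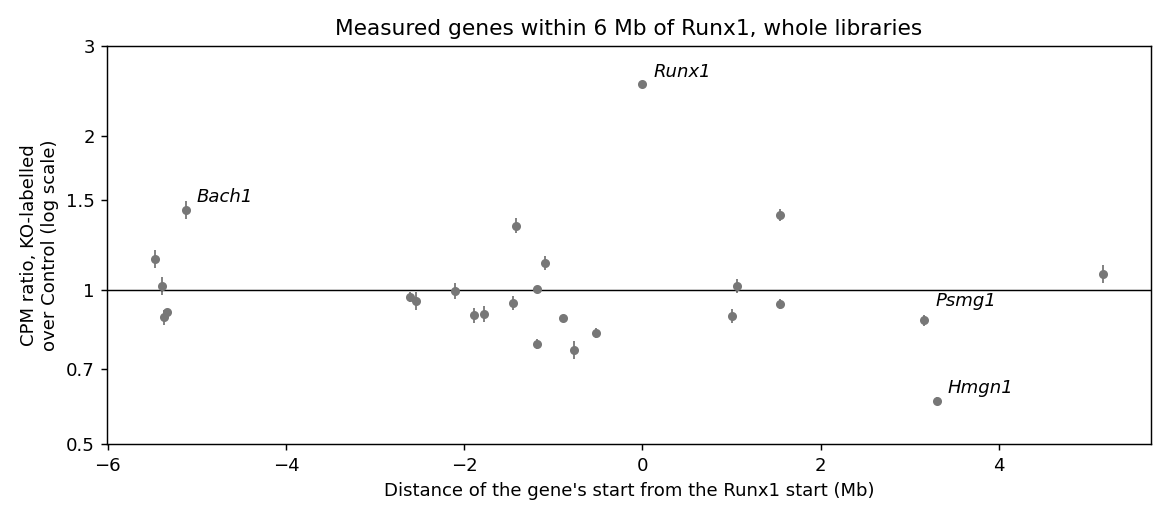
Ratio of CPM in the KO-labelled library over Control (log axis) for measured genes within 6 Mb of Runx1, whole libraries, against the distance of their start from the Runx1 start in Mb, with exact 95% counting intervals. Hmgn1, at 3.30 Mb, has the lowest ratio of the window, 0.609, and Runx1 the highest, 2.53, while Psmg1 near Hmgn1 is at 0.873.

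Hmgn2 had the same order of all 8 classes in both libraries (Spearman's rho 1). Fcnb was highest, at 720.2 CPM in Control and 608 CPM in the KO-labelled library, followed by Gstm1/CD63 at 541 and 430.3 CPM, and Hba-a2 was lowest at 169 and 149.6 CPM. Ly86 and Gstm1/Ly86 did not differ beyond their intervals in either library. Its ratio was below 1 in 7 classes, down to 0.741 (0.703 to 0.780) in Pf4 with 405 and 300.2 CPM, and above 1 in Car1 at 1.16 (1.13 to 1.20) with 196 and 227 CPM. None of these passed 1.5-fold. Hmgn1 and Hmgn2 therefore had opposite class orders at their ends: the globin class was highest for Hmgn1 and lowest for Hmgn2, and Fcnb the reverse.

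Hmgn3 was highest in Pf4, the level behind its choice, and lowest in Hba-a2, where 6 and 3 UMIs were counted. In Control it stood at 90.4 CPM (81.7 to 99.7) in Pf4, 28.9 CPM in Ly86, 20.4 CPM in Gstm1/Ly86, 17.5 CPM in CD34, 11.9 CPM in Gstm1/CD63, 8.03 CPM in Car1, 7.04 CPM in Fcnb and 0.448 CPM in Hba-a2. In the KO-labelled library the values in this order were 17.0 (15.4 to 18.6), 15.1, 7.62, 5.50, 2.23, 3.24, 1.46 and 0.275 CPM. Pf4 stood apart from Ly86 in Control, whereas in the KO-labelled library their intervals overlapped. Gstm1/Ly86 overlapped CD34 in both libraries, and Car1 overlapped Fcnb in Control. By descending level in the KO-labelled library, Car1 overlapped Gstm1/CD63, Gstm1/CD63 overlapped Fcnb and Fcnb overlapped Hba-a2.

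The value on which Hmgn3 was selected, its Pf4 ratio, was 0.188 (0.163 to 0.216, from 395 and 426 UMIs), 5.33-fold lower in the KO-labelled library. The log2 value with 10 CPM added was -1.90. The other classes were not used for the choice, though they come from the same libraries. There the ratio was 0.187 (0.130 to 0.263) in Gstm1/CD63, 0.208 (0.0945 to 0.423) in Fcnb, 0.315 (0.237 to 0.412) in CD34 and 0.373 (0.234 to 0.570) in Gstm1/Ly86. It was 0.403 (0.333 to 0.487) in Car1, 0.522 (0.449 to 0.604) in Ly86 and 0.614 (0.0994 to 2.88) in Hba-a2, the last from 6 and 3 UMIs. Of the 7 classes not used for the choice, Hmgn3 was thus lower beyond counting error in 6, and the Gstm1/CD63 interval overlapped that of Pf4. In all 7 Hmgn3 stayed under the minimum for a call, so among the 8 classes it was measured in Pf4 alone. Among the Unannotated cells it stood at 34.3 and 16.3 CPM, a ratio of 0.476 (0.299 to 0.742).

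By shares of cells, 31.2% (24.9 to 38.0) of 205 thinned Control cells of the Pf4 class had a Hmgn3 UMI and 7.54% (6.33 to 8.90) of 1698 KO-labelled ones. Unthinned the shares were 69.8% and 16.6%. In Hba-a2 no thinned cell had one, 0 of 272 in Control and 0 of 294 in the KO-labelled library, where the limit of 3 cells taken for a count of 0 is a share of cells with a UMI of 1.10% and 1.02%; unthinned they were 2.04% and 0.943%. In Ly86 the thinned shares were 13.4% and 6.10%, and the unthinned ones 48.6% and 27.1%.

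The Pf4 class held 222 Control and 1782 KO-labelled cells, at medians of 18342 and 13028 UMIs per cell. The summed level of 12 megakaryocyte markers was 6604 CPM in Control and 7053 CPM in the KO-labelled library, all 12 detected in both. In the other 7 classes it was 15.4 to 297 CPM in Control and 78.6 to 778 CPM in the KO-labelled library, higher in each. Pf4 cells thinned to 5000 UMIs were put in 3 bins by this sum: 55, 69 and 81 Control and 642, 509 and 547 KO-labelled cells. Hmgn3 stood at 80.0, 84.1 and 81.5 CPM in the Control bins from low to high and at 14.6, 18.5 and 18.3 CPM in the KO-labelled bins. The ratio was 0.183, 0.220 and 0.224 in the 3 bins, against 0.188 over the class. Hmgn3 did not vary with marker level within either library beyond its intervals. These bins divide the cells on which Hmgn3 was chosen, so their ratios describe the selected fall and lend it no support.

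The Pf4 gene, itself a marker in the sum that set the bins, differed between the libraries. In Control and KO-labelled cells it stood at 836 and 128 CPM in the lowest and 3400 and 954 CPM in the middle bin. In the highest bin it stood at 8198 and 9811 CPM. The part of the Pf4 level in the Hmgn3 difference was not tested. By G2/M bin the Hmgn3 ratio within the Pf4 class was 0.185, 0.174, 0.418 and 0.252 from low to high, each interval below 1. The G2/M bins too divide the cells on which Hmgn3 was chosen. Markers of other cell types in the Pf4 class stood at 481 and 729 CPM for multipotent progenitors, 356 and 299 CPM for erythroid cells, 230 and 194 CPM for basophils and mast cells (7 and 5 of 7 detected), 29.5 and 151 CPM for mature neutrophils and 7.78 and 0.796 CPM for macrophages. Their part in the Hmgn3 difference was not tested.

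Hmgb2, Hmgn1 and Hmga2 were set out by the same marker bins. From the lowest through the middle to the highest marker bin Hmgb2 stood at 978, 1139 and 1291 CPM in Control. In the KO-labelled library it stood at 1067, 988 and 919 CPM. The intervals of the libraries overlapped in the lowest bin and were apart in the middle and highest bins. Hmgn1 stood at 236, 186 and 267 CPM in Control and at 154, 137 and 98.4 CPM in the KO-labelled library. Hmga2 had 0, 3 and 0 UMIs in the Control bins and 58, 23 and 39 UMIs in the KO-labelled ones.

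**Figure D5:**
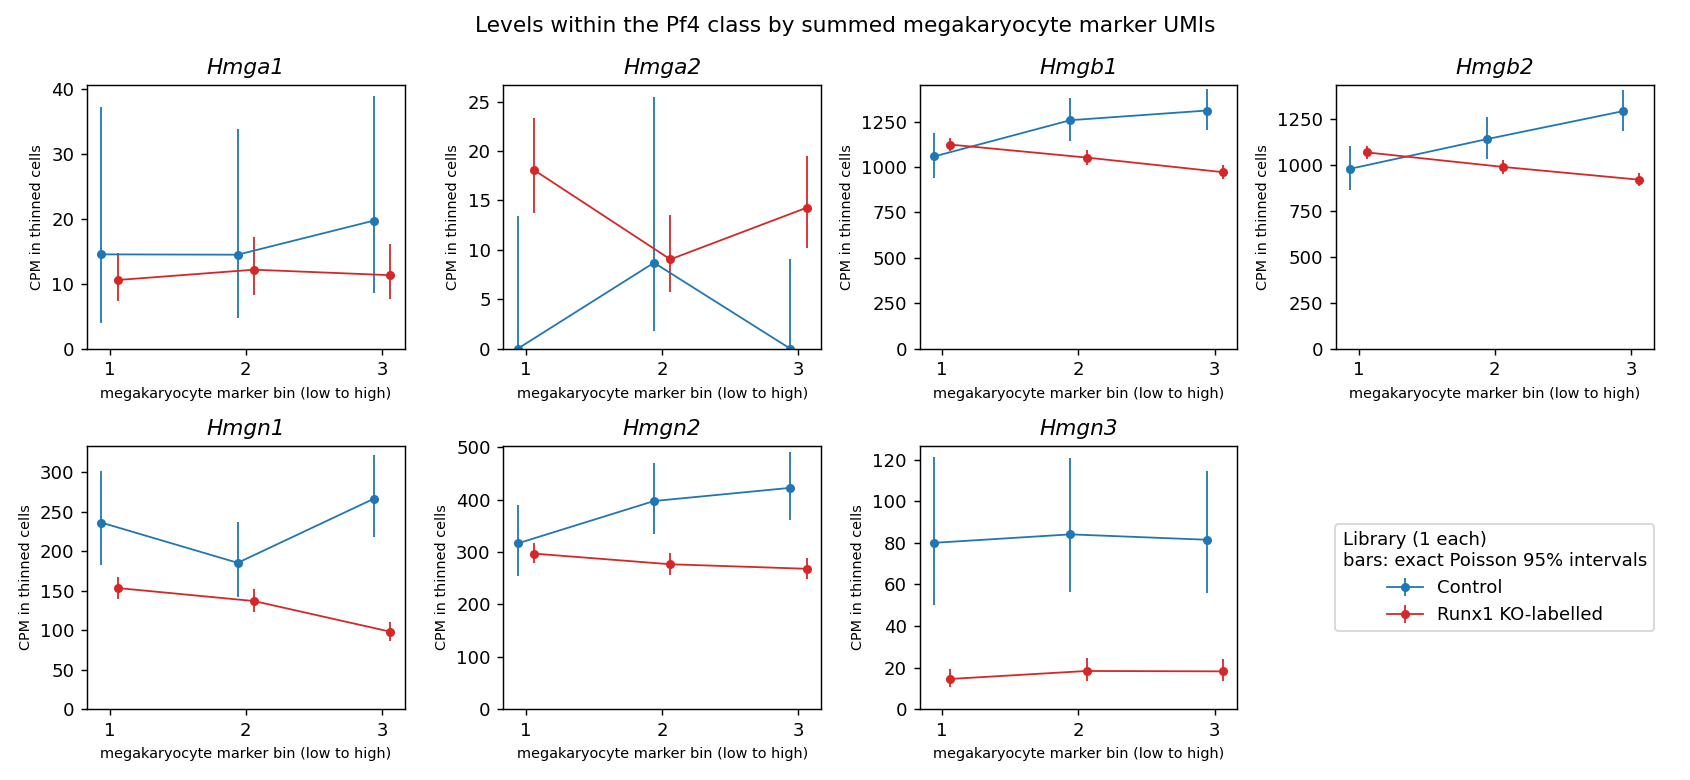
CPM of each gene in Pf4 class cells thinned to 5000 UMIs, by 3 bins of summed megakaryocyte marker UMIs from low to high, with exact Poisson 95% intervals. Hmgn3 stays between 80.0 and 84.1 CPM in Control and between 14.6 and 18.5 CPM in the KO-labelled library, while Hmgb2 goes up with the markers in Control (978 to 1291 CPM) and down in the KO-labelled library (1067 to 919 CPM).

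Genes with related roles were counted by the same limit. Beside these list counts stand the class shares of all measured genes, 0.628% to 3.38% called lower and 1.07% to 7.15% called higher. Of 26 other genes with HMG domains or of the HMG families, 11 to 15 were measured per class: Sox6, an erythroid transcription factor, was called higher in CD34 and Car1, Sox4, a transcription factor of progenitors, lower in Car1 (0.621) and Ly86 (0.547), Hmgb3 lower in Pf4, and none in the other classes. Hmgb3 stood at 352 CPM in Control and 202 CPM in the KO-labelled library in Pf4, a ratio of 0.573 (0.541 to 0.607). The median log2 ratio of this list ran from -0.06 to 0.07. Of 14 chromatin remodelling and nucleosome-modifying genes taken as HMGN partners, 12 or 13 were measured per class and 0 were called in any; Chd4, an ATPase of the NuRD complex, ran from 0.863 in Fcnb to 1.04 in Hba-a2. Top2a, a DNA topoisomerase of dividing cells and also on the G2/M list, ran from 0.724 (0.686 to 0.764) in Pf4 to 1.49 (1.43 to 1.55) in Hba-a2, short of a call in both.

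Linker histones, with which HMGN proteins compete, included 1 gene that was higher in most classes. H1f0, the replacement H1 of quiescent and differentiating cells, was called higher in 6 of 8 classes. Its ratio ran from 1.60 in Hba-a2, where it was not called, to 2.70 in CD34. H1f0 stood at 32.3 and 87.0 CPM in CD34, a ratio of 2.70 (2.45 to 2.97). In Pf4 it stood at 104 and 202 CPM, a ratio of 1.94 (1.76 to 2.14). Of the other linker histones, Hist1h1b was called lower in Pf4 (200.4 and 105 CPM) and H1fx in Gstm1/CD63 (35.8 and 19.3 CPM). The list medians lay between -0.29 and 0.15 on the log2 scale.

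Of 15 HMGB partners, such as the SET complex and DNA end-binding genes, 11 or 12 were measured per class, and only Apex1, a DNA repair endonuclease, was called, lower in Pf4. Set, the namesake of that complex, ran from 0.685 in Pf4 to 1.04 in Fcnb without a call. Sox6 and Apex1 were named after their values were seen. Of 8 genes for receptors and partners of extracellular HMGB1, at most 2 were measured in a class. Cxcr4, a chemokine receptor that HMGB1 bound to its ligand can engage, was called lower in CD34 (61.9 and 24.5 CPM), Ly86 and Gstm1/Ly86, and Cd24a in CD34 (81.1 and 43.5 CPM) and Fcnb. Under the 30 CPM minimum, the Cxcr4 ratio was 0.296 (0.265 to 0.329) in Car1 and 0.438 (0.346 to 0.557) in Pf4. In Hba-a2, also under it, the ratio was 1.01 (0.821 to 1.25). Of 9 genes around let-7, Lin28 and Hmga2, only Igf1r and Myc were measured, and Myc was called lower in Pf4 (105 and 47.1 CPM, ratio 0.451), where Hmga2 stood at 1.83 and 12.7 CPM.

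Likeness across classes was described by Pearson's r of log2(CPM + 10) over 20 class and library sums, among 4215 genes. These sums share libraries, depth and classes, so no p is given. Closest to Hmgb1 were Hnrnpm (0.979), Srsf3 and Syncrip, closest to Hmgb2 Bbip1 (0.937), Cop1 and Rab8b, closest to Hmgn1 Spr (0.955), Nfx1 and Msl3, and closest to Hmgn2 Csf2ra (0.933), Prdx5 and Ckap4. Hmga1, Hmga2 and Hmgn3 were under the minimum level for this ranking.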

How the data were processed

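The deposited matrix holds raw counts, UMIs per gene and cell, from 10x Genomics 3′ libraries (kit version 3 per the labels). Per the submitters' processing notes, Cell Ranger and the mm10 build were used; the sources used here state neither version nor settings. The cell annotation as deposited gives the fraction of mitochondrial UMIs and, as other values, the library name and the cell class. Its wild-type library was taken as Control. The sources used here do not say how the authors assigned classes.

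UMIs were summed by class and library and given as CPM. Levels have exact Poisson and ratios exact conditional binomial intervals at 95%; shares have exact Clopper-Pearson intervals, and a count of 0 a limit of 3 cells. All cover counting error only. Fold calls used CPM + 10, 30 CPM and 100 UMIs; the rule for named genes was all 7 members, up to 4 of the most abundant measured genes of each list and the 3 genes nearest to a member by likeness. For bins and shares cells were thinned to 5000 UMIs, leaving out 465 Control and 346 KO-labelled cells. No doublet caller was run. The members and lists were chosen with earlier results of these data known. Python 3.11.15, numpy 2.4.6, scipy 1.17.1, pandas 2.3.3 and matplotlib 3.10.9 were used.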

Additional observations from a re-analysis of the deposited data

Results flagged for a closer look

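For 3 members the ratio of the KO-labelled library over Control pointed in opposite directions in different cell classes, with each interval on its own side of 1; the differences between classes were not tested. Hmga2 was higher in the Pf4 class, at 6.92 (3.47 to 16.2), and lower among the Unannotated cells, at 0.368 (0.262 to 0.512), where it stood at 72.9 CPM in 143 Control cells and 26.8 CPM in 175 KO-labelled cells. Hmgb2 was higher among Unannotated cells, at 1.10 (1.04 to 1.16), and lower in Gstm1/Ly86, at 0.814 (0.782 to 0.846). Hmgn2 was higher in Car1, at 1.16 (1.13 to 1.20), and lower in Pf4, at 0.741 (0.703 to 0.780). The class and its extreme ratio were picked after the values were seen.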

How the results depend on the processing

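With 50 CPM added in place of 10, 3 member and class pairs were lower and 1 higher, against 7 and 4; at 2-fold, 1 was lower and 2 higher. A minimum of 20 UMIs in place of both the 30 CPM and the 100 UMIs gave 11 lower and 5 higher of 55 pairs, the additions being Hmgn3 in 4 classes and Hmga2 in Pf4. Thinned cells gave 5 and 3. Scaling without ribosomal protein, mitochondrial and globin genes gave 9 lower, adding Hmgn3 in Gstm1/Ly86 and Ly86, and 4 higher. Counting the Unannotated cells, a choice made after seeing the data, gave 9 and 4. The log2 ratio of Hmgn3 in Pf4 was -2.35 with 1 CPM added and -1.07 with 50. The fold of Hmgb2 between the highest and lowest bins was 1.28 (Control) and 1.37 (KO-labelled) with bins by S phase genes. The causes follow from the settings' own construction for the added CPM and limits and were otherwise not tested. Of 48 other member and class ratios whose interval excluded 1, 0 changed direction under the cell filters, thinning or the Hmga1b row; added CPM cannot change a direction. With all UMIs of the cells in the lowest G2/M bin, 4 of 43 did: Hmga1 in Gstm1/Ly86 (33 UMIs), Hmgb1 in CD34, and Hmgb2 in Car1 and Pf4. In thinned counts of those cells Hmga1 crossed 1 in Car1 (1.30, 0.774 to 2.26) and Gstm1/CD63 (1.10, 0.400 to 3.31) instead of Gstm1/Ly86. Scaling alternatives shifted the log2 ratio between libraries, before any CPM was added, by -0.03 to 0.03. Leaving out the ribosomal protein, mitochondrial and globin genes also raises every CPM against the added 10 CPM. That further shift, larger for genes of low level, is not in this range. Leaving out a replicate could not be run with 1 library per group. No paired analysis was possible because each group has 1 library. Low counts of the gene itself limit Hmgn3 in Hba-a2 and Hmga2 in Control Pf4 cells, with under 10 UMIs each.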

Other observations

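Outside the 8 compared classes, the Ltf class (50 Control and 221 KO-labelled cells), named for the neutrophil granule gene lactoferrin, had a different makeup of HMG genes. Its Hmgb2 level was 3300 CPM in Control and 3242 CPM in the KO-labelled library, above every compared class, and its Hmgn2 level was 1465 and 1546 CPM, likewise above. Hmgb1 stood at 629 and 558 CPM and Hmgn1 at 79.7 and 21.5 CPM, both below every compared class of the same library. The Hmgn1 ratio there was 0.270 (0.182 to 0.401, from 55 and 54 UMIs). This class had fewer than 100 Control cells, and a median of 11545 and 9352 UMIs per cell.

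Hmgn3 was also detected in small Control classes: 65.0 CPM (38.5 to 103) in 21 Vpreb1 cells from 18 UMIs and 17.4 CPM (9.53 to 29.2) in 56 Cd74 cells from 14 UMIs. In Control, 337 Prss34 cells had 9.36 CPM of Hmgn3, 15.8 CPM of Hmga2 and 225 CPM of Hmgn1; the KO-labelled library held 1 Prss34 cell.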
